A study of Schizosaccharomyces pombe with 144 samples.

Results

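The first hour of an induced meiosis was described by comparing the gene levels of the 1 h library with those of the 0 h library of one fission yeast time course. These are 2 of the 144 samples of the series and 2 of the 10 total RNA libraries held in the gene table, which has 1 library at each hour from 0 to 8 h and 1 of asynchronous mitotic cells. Both come from strain SPB2819, a diploid labelled clr4 wild type and h-/h-, with ade6-M210 on one homologue and ade6-M216 on the other. The native gene is marked as pat1::NatR on both homologues, and both carry pat1-as(L95A)::HygR. The strain further carries a lacO array with KanR and ura4+ at cen2(D107), his7+::lacI-GFP and lys1::MatPc-Bleo. All 10 libraries of the course share this genotype, so none of the differences below compares genotypes. The labels give growth in YES medium at 25 or 30 °C for the series as a whole, and no medium, temperature or agent for 0 h or 1 h. With 1 library at each time, the comparison has no replicate check and no test was made.

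Fission yeast enters meiosis when nutrients, nitrogen above all, run out and the kinase Pat1 stops restraining the RNA-binding protein Mei2. The pat1-as allele encodes a form of Pat1 that an added compound can block, which lets a whole culture enter meiosis together. The same cells sense glucose through cyclic AMP and protein kinase A, nitrogen through the TOR kinases, and heat, osmotic or oxidative stress through the MAP kinase Sty1 and the factors Atf1, Pap1 and Hsf1.

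Levels are RPKM, read counts scaled to transcript length and to library size, so they can be compared between genes. A change is the difference in log2(RPKM + 1), 1 h minus 0 h, and it understates the fold of genes near 1 RPKM. A gene with at least 5 RPKM in at least 1 of the libraries was said to rise or fall where this difference reached 2, which is 4-fold, and those words are used here for no other gene. Of 5157 genes, 4947 passed the 5 RPKM minimum. Among them 65 rose, which is 1.31% of the genes, and 59 fell, which is 1.19%. At a 2-fold limit 281 genes were higher, 5.68%, and 445 lower, 9.0%. The other 4221 genes, 85.3%, stayed within 2-fold, and the median change was -0.06. By direction alone, whatever the size, 2274 of the 4947 genes were higher at 1 h and 2673 lower. Counts of higher or lower members in the lists below are to be read against these. The 65 genes that rose held 0.823% of the summed RPKM before and 5.31% after the hour, while the 59 that fell held 6.15% and 1.06%. Just inside the limit for a rise was the aspartate kinase gene SPBC19F5.04 at 2.06, and just outside it the serine synthesis gene ser3, which rounds to 2.00. Depth was close, at an estimated 20551939 reads at 0 h and 18666882 at 1 h. For a gene of median length, 5 RPKM is then 172 reads at 0 h (95% Poisson interval 147 to 200) and 156 at 1 h (132 to 182), an interval that covers counting error only. The counting intervals of the 2 libraries did not overlap for any of the 124 genes, although 9 of those that rose had fewer than 20 estimated reads at 0 h. These genes were picked by a 4-fold difference in the same values, so this separation is no independent check of the calls.

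**Figure D1:**
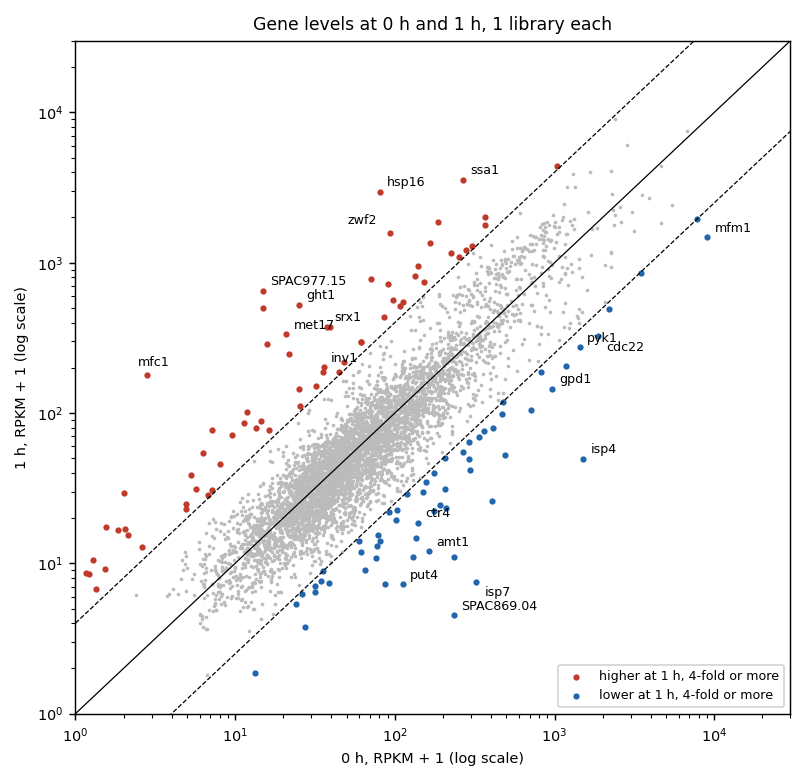
Each point is 1 of the 4947 genes with at least 5 RPKM at 0 h or 1 h, with RPKM + 1 at 0 h on the x axis and at 1 h on the y axis, both on log scales. The solid line marks equal levels and the dashed lines a 4-fold difference. The 65 red genes lie above the upper dashed line, with mfc1 farthest from it, and the 59 blue genes lie below the lower one, with SPAC869.04 and isp7 farthest.

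The stage given by the labels was checked against lists of mating, meiotic, G1 to S transition and ribosomal protein genes. The 28 mating and pheromone genes summed to 603 RPKM in the mitosis library, 34140 at 0 h and 10110 at 1 h. For the 12 genes of meiotic entry the sums were 90.2, 2532 and 1519 RPKM. The 25 genes of meiotic recombination and the chromosome bouquet summed to 278, 2931 and 3184 RPKM. For the 24 genes of the G1 to S transition the sums were 1442, 5365 and 2326 RPKM. Mating and meiotic genes were therefore already far above the mitosis library at 0 h. Ribosomal protein genes took 45.1% of the summed RPKM of all genes in the mitosis library, 11.7% at 0 h and 20.2% at 1 h. The libraries thus differ in composition, and rescaling each by its median ratio to the course's average library moved the median change of all genes from -0.06 to 0.04. After this rescaling 69 genes rose, 1.39% of those tested, and 50 fell, 1.01%. By direction alone, 2580 were then higher at 1 h and 2367 lower. In these bulk samples, a change in the number of cells that express a gene and a change in RNA per cell cannot be told apart.

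Of the 8 hexose and gluconate transporter genes, 7 were higher at 1 h than at 0 h, 1 of them past the limit, and their median change was 0.87 against -0.06 for all genes. The high-affinity glucose transporter gene ght1 rose from 24.1 to 525 RPKM, a change of 4.39. It was at 10.2 RPKM in the mitosis library, 23.5 at 2 h and 88.2 at 3 h, so its highest level was at 1 h. Of the other members, ght5, the main high-affinity glucose transporter, was at 400 and 1309 RPKM, ght7 at 79.2 and 277, and the gluconate importer ght3 at 279 and 604, none of them past the limit. The glucose and fructose transporter gene ght2 was the member lower at 1 h, at 90.9 and 52.7 RPKM. The ght genes are close relatives of each other, and how reads that match several of them were counted is not given in the sources used here.

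The pentose phosphate pathway oxidises glucose 6-phosphate and gives NADPH and ribose. Of its 9 genes with those of gluconate entry, 2 rose, none fell and the median change was 1.38. The first enzyme, glucose-6-phosphate dehydrogenase, is encoded by several genes here. Of these, zwf2 rose from 92.9 to 1572 RPKM, a change of 4.07. It stood at 78.9 RPKM at 2 h, 451 at 3 h and 4.01 in the mitosis library. The zwf1 gene had 540, 1404 and 2751 RPKM at the first 3 time points, with a change of 1.38 that stayed under the limit. The gluconokinase gene idn1, whose product lets gluconate enter the pathway, rose from 303 to 1299 RPKM. SPBC660.16, annotated as phosphogluconate dehydrogenase, the next oxidative step, was the most abundant of the list, at 2403 and 8976 RPKM. The difference was 3.73-fold, under the limit as deposited, and after the rescaling its log2 change was 2.00, where it counts as a rise. The list summed to 5727 and 16820 RPKM, and to 13050 in the 2 h library.

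In glycolysis and ethanol formation, of 17 genes none rose, 1 fell, 6 were at least 2-fold lower, and the median change was -0.86. Pyruvate kinase, pyk1, the last step of glycolysis, fell from 1445 to 274 RPKM, a change of -2.40. The glyceraldehyde-3-phosphate dehydrogenase gene tdh1 was at 2082 and 546 RPKM, alcohol dehydrogenase adh1 at 1475 and 469, and aldolase fba1 at 4671 and 1848. Not all members were lower, and hexokinase hxk2 was at 293 and 524 RPKM with a second glyceraldehyde-3-phosphate dehydrogenase gene, gpd3, at 1324 and 1967. The list summed to 24390 and 15230 RPKM, against 40510 in the mitosis library.

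Among 15 genes for the use of other carbon sources, 3 rose, 1 fell and the median change was -0.08, which rescaling turned to 0.02. Invertase, inv1, the secreted enzyme that splits sucrose, rose from 34.8 to 201 RPKM and was at 345 at 2 h and 14.7 at 3 h. Glycerol dehydrogenase, gld1, rose from 34.6 to 187 RPKM and dihydroxyacetone kinase, dak2, from 151 to 738. These are the consecutive steps by which fission yeast uses glycerol. In the opposite sense, gpd1, the glycerol-3-phosphate dehydrogenase that makes glycerol, fell from 957 to 144 RPKM, a change of -2.73, while its paralog gpd2 was at 66.2 and 163. The malic enzyme gene mae2 fell from 486 to 51.2 RPKM. Fructose-1,6-bisphosphatase, fbp1, a gluconeogenesis gene repressed by glucose, was at 206 and 145 RPKM, a change of -0.50 on the log2 scale. Respiratory genes hardly differed: none of 32 passed the limit, and their changes ran from -1.03 to 0.30.

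**Figure D2:**
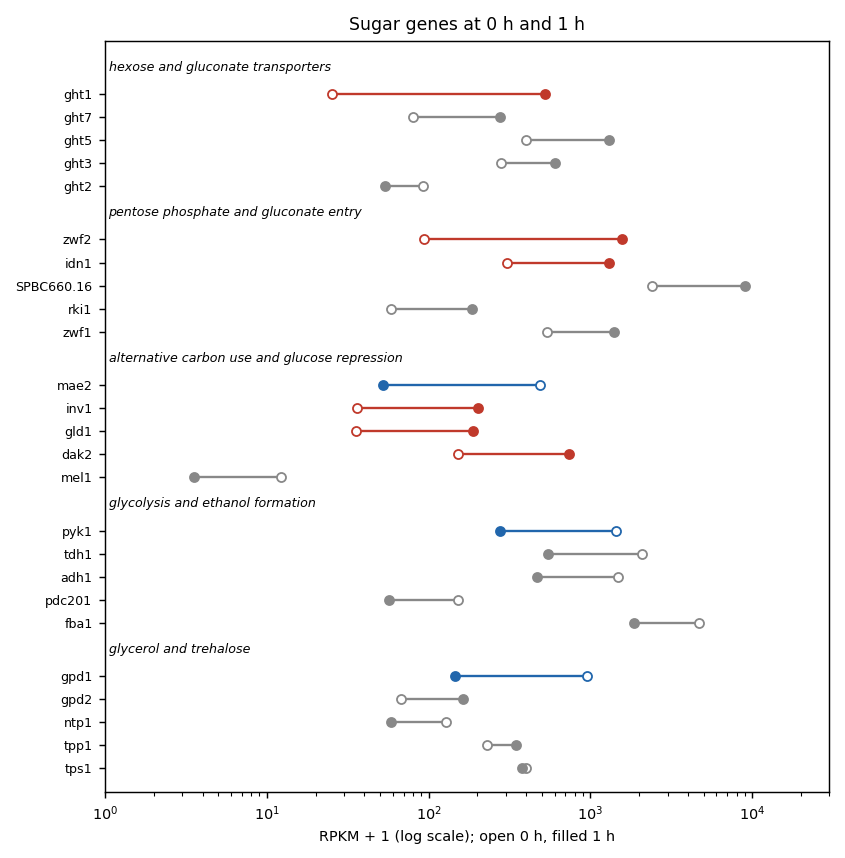
Levels at 0 h (open circles) and 1 h (filled circles) of the 5 sugar genes with the largest change in each of 5 lists, as RPKM + 1 on a log scale. Red genes rose and blue genes fell by 4-fold or more. Filled circles lie to the right in 4 of the 5 transporter genes and in all 5 pentose phosphate genes shown, and to the left in all 5 glycolysis genes shown.

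Of 37 heat shock protein and chaperone genes tested, 6 rose, none fell, 32 were higher at 1 h, and the median change was 0.81. The small heat shock protein gene hsp16 rose from 79.6 to 2962 RPKM, a change of 5.20, and reached 6440 RPKM at 2 h before 206 at 3 h. The Hsp70 gene ssa1 rose from 267 to 3556 RPKM and was at 374 at 2 h. Its close copy ssa2 was at 2267 and 4082 RPKM, so reads shared between them could move either value. The disaggregase-family gene SPBC4F6.17c, annotated as Hsp78, rose from 89.4 to 718 RPKM, and hsp3104, a glyoxalase III relative, from 20.7 to 246. The Hsp90 cochaperone genes aha1 and sti1 rose from 106 to 514 and from 249 to 1084 RPKM. Hsp90 itself was at 1296 and 3874 RPKM, a change of 1.58. The other direction was seen for hsp9, a stress and starvation gene, which had 5417 and 2415 RPKM and then 206 at 2 h. The gene of the regulator, hsf1, was at 189 and 131 RPKM.

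Thiol and quinone defence genes also held risers. Of 29 oxidative stress genes, 5 rose, 1 fell and the median change was 0.00, so most of the list did not move with its risers. Sulfiredoxin, srx1, which repairs overoxidised peroxiredoxin, rose from 36.6 to 375 RPKM, a change of 3.32, and was at 29.2 at 2 h. The quinone reductase gene obr1 rose from 186 to 1867 RPKM, thioredoxin reductase trr1 from 134 to 814 and thioredoxin trx1 from 1041 to 4370. The efflux pump gene bfr1, which is in this list and in that of drug transporters, rose from 38.2 to 370 RPKM and stayed at 271 at 2 h. In the drug transporter list 3 of 11 genes rose, with pmd1 at 31.2 and 151 RPKM and mfs2 at 5.77 and 27.5 beside bfr1. Catalase, ctt1, was at 306 and 1161 RPKM and ended just under the limit at 1.92, and the glutathione S-transferase gene gst3 fell from 100.1 to 18.4. The factor genes pap1 and atf1 were lower at 1 h, at 111 and 56.5 RPKM and at 196 and 121 RPKM.

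Genes of the stress MAP kinase pathway itself did not rise. All 23 were lower at 1 h than at 0 h, 20 of them also after rescaling. Among all 4947 genes 2673 were lower, and 2367 after rescaling. Of the 23, 1 was past the limit, and the median change was -0.72. The fall was that of pyp1, from 77.8 to 14.4 RPKM, whose product is the tyrosine phosphatase that switches Sty1 off. Of the cyclic AMP and protein kinase A list, none of 13 genes rose or fell, and the median change was -0.64. Its catalytic subunit gene pka1 was at 98.1 and 35.7 RPKM and its regulatory subunit gene cgs1 at 18.1 and 5.46. Of the 13, 10 were lower at 1 h and 3 higher. The hsp90 gene, also in this list, was higher, at 1296 and 3874 RPKM, and the list summed to 1883 and 4348 RPKM. The TOR list had none past the limit among 19, with a median of -0.24.

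**Figure D3:**
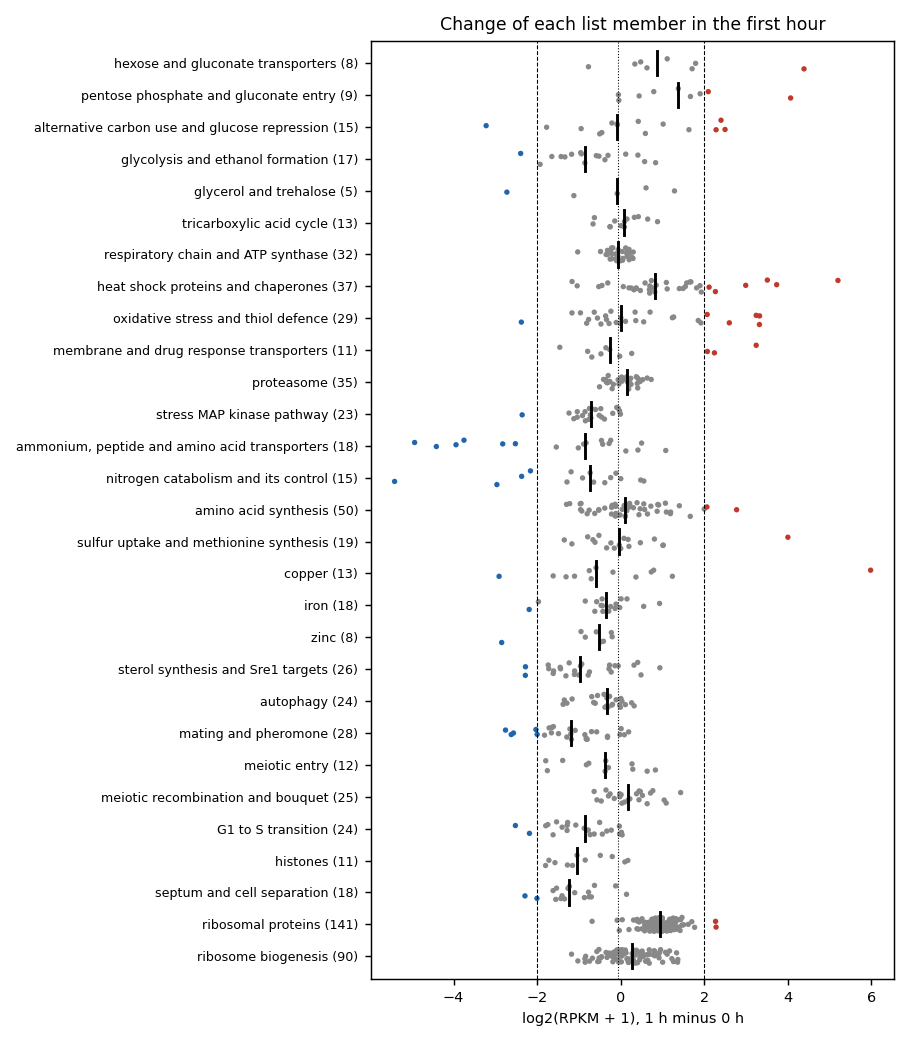
Each point is a gene, placed by its change in log2(RPKM + 1), 1 h minus 0 h, in 29 gene lists with the number tested in brackets. Black bars are list medians, the dotted line is the median of all 4947 genes at -0.06, and the dashed lines mark 4-fold. The medians of chaperones and ribosomal proteins lie to the right of the dotted line, and those of MAP kinase, mating, histone and septum genes to the left.

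Of 18 genes for uptake of ammonium, peptides and amino acids, none rose, 6 fell and the median change was -0.86. The list summed to 2772 RPKM at 0 h and 557 at 1 h. The oligopeptide transporter gene isp4 fell from 1513 to 48.5 RPKM, a change of -4.93, and was at 25.0 at 2 h and 16.2 in the mitosis library. The amino acid transporter gene isp5 fell from 235 to 10.1 RPKM, the proline transporter put4 from 111 to 6.29, and the ammonium transporter amt1 from 162 to 11.1. The permease per1 fell from 75.5 to 9.79 RPKM and the peptide transporter ptr2 from 79.6 to 13.0. These genes are known to be on when good nitrogen sources are scarce. In the list of nitrogen breakdown and its control, 4 of 15 fell and none rose, with a median of -0.73. The dioxygenase gene isp7 fell from 319 to 6.52 RPKM, glutamine synthetase gln1 from 191 to 23.6, the uricase SPCC1223.09 from 60.5 to 10.9, and the vacuolar protease isp6 from 2189 to 488. The GATA factor gene gaf1, an activator of nitrogen starvation genes, was at 66.1 and 28.4 RPKM. A pair of neighbouring genes outside the lists, SPAC869.04, annotated as formamidase-like, and SPAC869.03c, annotated as a urea transporter, fell from 233 to 3.52 and from 86.0 to 6.29 RPKM. The former had the largest fall of all genes tested, a change of -5.70. Also outside the lists, SPBC887.17, annotated as a transmembrane transporter, fell from 404 to 24.8 RPKM, a change of -3.97. None of 24 autophagy genes passed the limit, and their median change was -0.32. Of them 19 were lower at 1 h (17 after rescaling), against 2673 of all 4947 genes (2367 after rescaling). At least 2-fold lower were 4 of the 24, against 9.0% of all genes.

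Amino acid synthesis genes held a few rises, with a median close to that of all genes. Of 50 genes, 2 rose, none fell and the median change was 0.11. Homocitrate synthase, lys4, the first step of lysine synthesis, rose from 138 to 951 RPKM. The aspartate kinase gene SPBC19F5.04 rose from 43.9 to 186 RPKM, and ser3, for serine, had 148, 595 and 3697 RPKM at the first 3 time points. In sulfur assimilation 1 of 19 genes rose and none fell, and the median change was -0.03. By direction 11 of the 19 were lower at 1 h (9 after rescaling). That is near the share of all genes, 2673 of 4947 (2367 after rescaling). The riser was the homocysteine synthase gene met17, from 19.9 to 334 RPKM, and it went on to 1376 at 2 h. The sulfate transporter gene SPAC869.05c was at 27.6, 56.9 and 923 RPKM at the first 3 time points. Lower at 1 h were the methylenetetrahydrofolate reductase gene met9, at 38.7 and 14.5 RPKM, and the cysteine synthase-like gene cys12, at 64.1 and 27.9.

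Genes for copper, iron and zinc had medians below that of all genes, at -0.59, -0.36 and -0.52, with members on both sides in the copper and iron lists. The largest rise of all 4947 genes was that of mfc1, a copper transporter known from the forespore membrane of meiotic cells, from 1.82 to 177 RPKM, a change of 5.98. It was at 22.1 RPKM at 2 h, 4.06 at 3 h and 0.509 in the mitosis library, and an estimated 63.0 and 5569 reads lie behind the 0 h and 1 h values. The copper transporter of growing cells moved the other way, with ctr4 falling from 139 to 17.6 RPKM and its partner ctr5 at 108 and 34.5. The copper list thus had 1 of 13 genes rising and 1 falling. Its regulator gene cuf1 was at 28.2 and 36.5 RPKM. In the zinc list 1 of 8 fell, the importer zrt1, from 64.1 to 8.04 RPKM, and in the iron list 1 of 18 fell, the siderophore transporter str3, from 33.6 to 6.58, before 68.6 at 2 h. Among sterol synthesis genes 2 of 26 fell and none rose, with a median of -0.99: erg25 from 336 to 68.2 RPKM and erg6 from 265 to 53.7.

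**Figure D4:**
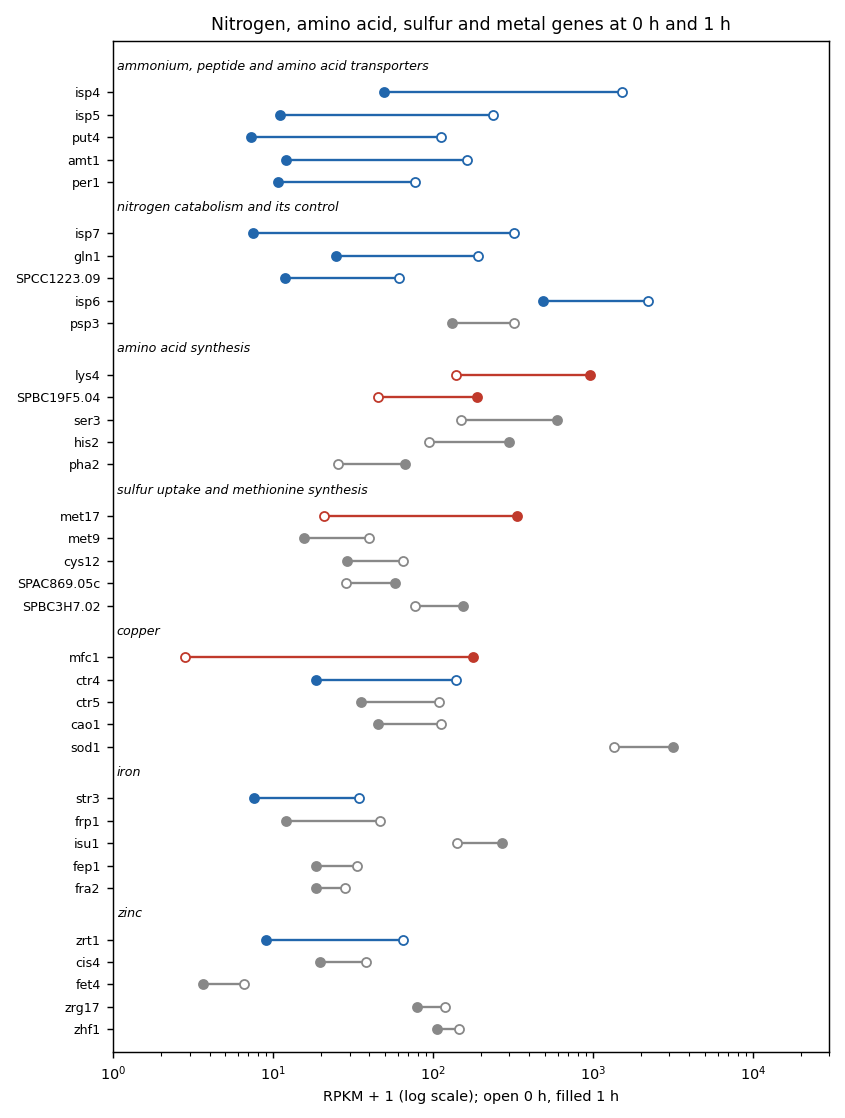
Levels at 0 h (open circles) and 1 h (filled circles) of the 5 genes with the largest change in each of 7 nutrient lists, as RPKM + 1 on a log scale. Red genes rose and blue genes fell by 4-fold or more. All 5 ammonium, peptide and amino acid transporter genes shown moved left, while lys4, met17 and mfc1 moved right.

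Mating, replication and cell separation lists had medians below that of all genes. Of 28 mating genes 5 fell and none rose, 25 were lower at 1 h, and the median change was -1.19. After rescaling 24 were lower and 3 fell. The genes of the M-factor pheromone precursor mfm1 and of its receptor map3 fell from 9074 to 1474 and from 708 to 104 RPKM, and dni1, a claudin-like protein of cell fusion, from 291 to 48.1. The P-factor gene map2 went from 3503 to 857 RPKM and mfm3 from 7810 to 1949, and both passed the limit only as deposited. Meiotic entry genes had none past the limit: mei2 was at 1240 and 366 RPKM, its inducer ste11 at 207 and 116, and pat1 at 231 and 178. None of the 25 recombination genes passed it either, with rec7, which helps form meiotic breaks, at 5.84 and 17.5 RPKM. In the list of the G1 to S transition 2 of 24 fell, the ribonucleotide reductase gene cdc22 from 1861 to 323 RPKM and the replication licensing gene cdc18 from 292 to 63.3. At 2 h they were at 750 and 127 RPKM. Histone genes had none of 11 past the limit and a median of -1.05, with summed levels of 9189 and 5351 RPKM followed by 30070 at 3 h, and they share near-identical copies. Of 18 septum genes, 17 were lower at 1 h and the median change was -1.25, and the glucanosyltransferase gene gas1 fell from 475 to 118 RPKM, though only as deposited.

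Ribosomal protein genes were broadly higher. Of 141, 138 were higher at 1 h (140 after rescaling) and 58 by 2-fold or more, with a median change of 0.94, but 2 rose past the limit, a share close to the 1.31% of all genes: rpp203 from 60.0 to 296 RPKM and rpl3002 from 60.7 to 297. Many of these genes have a near-identical second copy, so single members are uncertain. Ribosome biogenesis genes had a median of 0.27, and none of 90 passed the limit. None passed it either among 31 translation factor genes (median 0.12), 35 proteasome genes (0.14), 13 genes of the tricarboxylic acid cycle (0.09), 17 phosphate and thiamine genes (-0.10), 6 uracil and vitamin transporter genes (-0.67) or the pair of proton pump genes (-0.56). The 13 Tf2 retrotransposon copies, which cannot be told apart well by short reads, were all higher at 1 h with changes from 0.70 to 0.87, and none passed the limit. The heterochromatin genes that the series is about were close in both libraries: the H3K9 methyltransferase gene clr4 was at 15.4 and 18.5 RPKM and swi6, the HP1 protein, at 81.8 and 63.5.

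Outside the lists, the largest rises of named genes were those of fub2, a proteasome regulator relative, from 1.01 to 28.3 RPKM, and of rib4, a riboflavin synthesis gene, from 69.7 to 773. The chronological lifespan genes ecl2 and ecl3 rose from 6.12 to 75.8 and from 10.8 to 100.5 RPKM, and ecl2 was at 249 at 2 h. The cyclophilin gene wis2 rose from 164 to 1359 RPKM. Among genes without a symbol the largest rises were SPAC977.15, a dienelactone hydrolase relative, from 13.9 to 652 RPKM, SPCC4B3.06c, an FMN reductase, from 13.9 to 498, and SPCC584.16c, of unknown role, from 14.7 to 286. The largest falls of named genes were rds1 from 209 to 22.5 RPKM, the calcium channel yam8 from 174 to 21.4, lsd90 from 295 to 40.9 and the eisosome gene pil1 from 1185 to 206. The eisosome genes eis1 and pil2 fell too, from 361 to 75.5 and from 155 to 33.8 RPKM. Of the 65 genes that rose 33 have no symbol, and of the 59 that fell 20 have none. How many of all tested genes lack a symbol was not counted, so nothing is read from these counts.

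Some risers lie next to each other. Among 4736 pairs of adjacent protein-coding genes with both tested, 7 pairs had both genes rising and 3 both falling, as ordered in the RefSeq annotation of ASM294v3. The number of such pairs to expect from the shares of all genes called was not computed. SPAC977.14c, SPAC977.15 and dak2 are a run of 3, at 223 and 1160, 13.9 and 652, and 151 and 738 RPKM. Elsewhere hsp16 adjoins SPBC3E7.17, at 0.531 and 8.19 RPKM, and inv1 adjoins SPCC191.10, at 1.12 and 14.5. Only an estimated 2.0 and 13.2 reads lie behind the 0 h values of SPBC3E7.17 and SPCC191.10. The mfc1 gene adjoins the esterase gene SPAPB1A11.02, at 1.63 and 11.9 RPKM. Of the genes called, 12 of 65 risers and 14 of 59 fallers overlap another gene of the table in that annotation, srx1, aha1, map3 and zrt1 among them on opposite strands. The share of all tested genes with such an overlap was not counted, so these counts do not set the called genes apart. The library kit marks strand, but whether counting used it is not given, so reads of such partners may not be separated.

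How long the differences lasted varied between genes. The ght1, zwf2, ssa1, srx1, mfc1 and SPAC977.15 levels were highest at 1 h of all 10 libraries. The hsp16, met17, ser3, ecl2, inv1 and SPCC4B3.06c levels were highest at 2 h, at 6440, 1376, 3697, 249, 345 and 614 RPKM. The isp4, isp7, amt1 and put4 levels did not return to the 0 h value at any later hour.

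**Figure D5:**
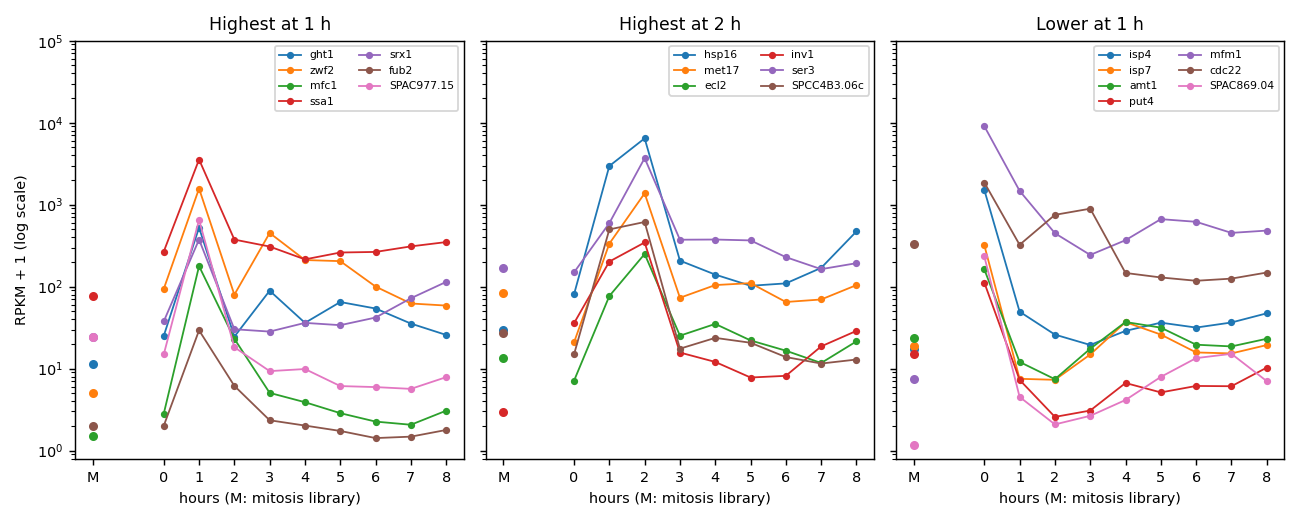
RPKM + 1 on a log scale against hours from 0 to 8, 1 library an hour, with the mitosis library at the left as M. The genes of the left panel peak at 1 h, those of the middle panel at 2 h, and those of the right panel are lower at 1 h than at 0 h.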

How the data were processed

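Total RNA was extracted and stranded total RNA libraries were made, per the labels' protocols. The authors' gene table gives RPKM for 5157 genes in 10 libraries, and the submitters' processing notes name bcl2fastq 1.17, cutadapt 1.18, STAR 2.7.3a, Bowtie 1.2.2, SAMtools 1.9, bedtools 2.26.0 and 2.27.1 and the build ASM294v2. The counting tool, its use of strand and its treatment of multiply matching reads were not stated. A further kind of column, deposited as TPM and treated as a score, divides row after row by the totals of different libraries in turn, so it was used only for relative depth.

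Changes were computed as log2(RPKM + 1), 1 h minus 0 h, over all genes with at least 5 RPKM at either time, with a size limit of 4-fold and no test, in Python 3 with pandas and NumPy. Depth was estimated from the steps between low RPKM values, and this estimate was tested on simulated data. The call rule was tried on simulated counts with counting error only and changes planted in well-expressed genes. That trial leaves out the spread between cultures and does not cover changes in genes of low level. Names, products, lengths and gene order came from the RefSeq annotation of ASM294v3, which is another build, so no coordinates or sequences are given. Of the genes, 3636 matched by symbol, 1392 by systematic ID, 102 by synonym and 27 not at all. The genes and the 36 lists were chosen with earlier results of these data known, and 17 list entries were left out after the annotation showed another gene under that name. Named genes are the 5 with the largest change in each list, the 20 named and 3 unnamed genes with the largest rise and fall outside the lists, and 11 fixed genes. The genes ptr2, sti1, hsp9, hsf1, ssa2, trx1, ctt1, pap1, gaf1, fbp1, hxk2, gpd3, cuf1, SPAC977.14c, SPBC3E7.17, SPCC191.10 and SPAPB1A11.02 were added after their values were seen. A search of promoters for sequence motifs was planned and not run, since promoter sequence of the build was not used here. One gene that the naming rule takes is not reported here. Alternatives were other pseudocounts, scalings, minimum levels and size limits.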

Additional observations from a re-analysis of the deposited data

How the results depend on the processing

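No paired analysis was possible because the comparison has 1 library at each time and the replicate numbers belong to other samples. For the same reason no library could be left out. With a size limit of 2-fold, 281 genes were higher and 445 lower, and with 8-fold, 23 and 12, against 65 and 59 at 4-fold. Across the other alternatives (pseudocounts of 0.1 and 5, both rescalings, no minimum, a minimum of 20 RPKM, protein-coding genes only) the counts ran from 48 to 69 higher and from 45 to 65 lower, and no gene the text names by its rule changed direction where it was called. Median-ratio rescaling of all libraries moved the side of the limit for 5 of the 224 named genes: SPBC660.16 and ser3 then rose, and map2, mfm3 and gas1 no longer fell. A pseudocount of 5 took genes out of the calls, among them mfs2, SPBC19F5.04, gas1, str3, mfm3, rsv1 and ayr1. Without the 5 RPKM minimum the median change of the other carbon source list was 0.504, and with a minimum of 20 RPKM it was 0.17, against -0.08. Depth and the single library at each time limit what can be said: counting error is small, but the spread between cultures was not measured.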
